A study of Mus musculus with 6 samples.

Results

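Glucocorticoids are adrenal steroid hormones that enter cells and bind the glucocorticoid receptor, encoded by Nr3c1. The bound receptor leaves a complex of chaperones, moves to the nucleus and binds DNA, where it raises some genes and lowers others. In leukocytes its targets include feedback regulators of the receptor itself, transcription factors that restrain inflammatory genes, and inhibitors of growth signalling. The 8 genes described here are the receptor and 7 genes widely used as readouts of its activity (Fkbp5, Tsc22d3, Klf9, Zbtb16, Sgk1, Ddit4 and Errfi1). They were chosen by symbol, with earlier results of these data known, and all were found among the 32285 genes of the count matrices. They were followed in splenocytes, the cells of the mouse spleen, by single-cell RNA sequencing of unique molecular identifiers (UMIs, each standing for 1 captured RNA molecule).

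The mice were C57BL/6 of WT genotype, put at 6 weeks of age on ND or on MCDHFD for 7 weeks. The labels use MCDHFD as the model of metabolic dysfunction-associated steatohepatitis (MASH), a fatty and inflamed liver, and ND as its control. Each diet has 3 libraries, called ND 1 to ND 3 and MCDHFD 1 to MCDHFD 3 here. Nothing in the labels ties a library to a single mouse, so the p-values measure the spread between libraries.

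Cells were barcodes of 1000 UMIs or more in which mitochondrial genes gave no more than 10%, and there were 3278 to 6625 per library. Their median depth was 4462 to 6186 UMIs. ND 2 and MCDHFD 3 stood apart: they were deposited as filtered barcode lists of 3409 and 3807 entries, against 1114720 to 1345921 in the other 4. Their file headers name Cell Ranger 7.2.0, against 9.0.1 in the others, and their median mitochondrial share was 0.569% and 1.68%, against 3.73% to 3.96%. Between libraries at most 18 kept cells shared a barcode. ND 2 and MCDHFD 3 were known from earlier results of these data to stand apart in their diets. For that reason, and because each diet holds 1 filtered list, the form of the list was entered as a term beside diet. The term was thus chosen with these data seen, and values without it are given beside the calls of the members.

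Cells were placed in 8 classes by gates on marker UMIs, and each class name below stands for its gate. B cells had at least 2 Cd79a UMIs, CD8 T cells had Cd3e and Cd8b1, CD4 T cells had Cd3e and Cd4, and NK cells had Ncr1 without Cd3e. Monocytes and macrophages (mono/mac) had Csf1r, neutrophils had Csf3r and at least 5 S100a8 UMIs, dendritic cells (DC) had Flt3 and at least 3 H2-Aa UMIs, and erythroid cells had Klf1. Between 82.5% and 91.4% of a library's cells met a gate, and 5.48% to 13.8% met several. The DC gate was the least separate, with 48.8% of its cells also in the B gate. Of the neutrophil gate, 34.3% were also in the mono/mac gate. Erythroid cells were few, 25 to 67 per library. Marker genes of each class, the gate genes among them, were detected in their own gate in every library. In the B gate the markers of the other classes were all detected too, so detection alone does not separate the classes. Levels are given as CPM, a gene's UMIs scaled to the same total in every library and class. Neutrophil markers also appeared in other gates, and their sum in CD8 T cells was 102 to 10500 CPM with ND and 459 to 1278 CPM with MCDHFD. Pancreatic acinar markers summed to 1 to 3 CPM in B cells with ND and to 3 to 249 CPM with MCDHFD. The part of either in the results below was not tested.

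Promoter windows were read for 6 of the 8 genes from RefSeq (GRCm38.p6, 250 bases before to 50 after each annotated start), 14 windows in all. Each was searched on both strands for the glucocorticoid response element, the half-site AGAACA, then 3 bases of any kind, then its reverse complement TGTTCT. It was found in 1 window, of Sgk1 at chr10:21993640-21993939 on the plus strand, starting at position 62 from the window's 5′ end. Over all 32851 windows of this length, 0.00913% held it, 3 in number. The half-site AGAACA was in 4 of the 14 windows, against 19% of all, and the inner ACANNNTGT in 2, against 6.85%. These matches overlap where the full element stands. All windows with a match are of Sgk1, except 1 window of Tsc22d3, so the counts are not a trait of the members as a set. Sgk1 has several windows, and 1 is shown because it holds the full element. One of the 3 windows of Tsc22d3 (chrX:140600473-140600772, minus strand) holds a half-site alone, and the other two hold no match. The window of Fkbp5 (chr17:28486100-28486399, minus strand), the gene with the broadest change below, has none of the 3 patterns. Capitals mark the matches.
Sgk1: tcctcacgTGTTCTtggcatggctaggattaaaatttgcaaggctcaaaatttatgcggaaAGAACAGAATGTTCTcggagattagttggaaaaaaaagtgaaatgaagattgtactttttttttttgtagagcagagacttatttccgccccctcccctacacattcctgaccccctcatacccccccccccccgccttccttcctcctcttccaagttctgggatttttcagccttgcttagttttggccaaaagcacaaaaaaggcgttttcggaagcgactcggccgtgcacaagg
Tsc22d3: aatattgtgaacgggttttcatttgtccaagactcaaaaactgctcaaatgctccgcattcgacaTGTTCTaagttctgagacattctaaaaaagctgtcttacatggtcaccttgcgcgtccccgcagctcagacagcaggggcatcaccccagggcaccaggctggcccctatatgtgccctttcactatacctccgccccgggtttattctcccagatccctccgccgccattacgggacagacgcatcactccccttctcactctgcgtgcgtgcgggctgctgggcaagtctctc
Fkbp5: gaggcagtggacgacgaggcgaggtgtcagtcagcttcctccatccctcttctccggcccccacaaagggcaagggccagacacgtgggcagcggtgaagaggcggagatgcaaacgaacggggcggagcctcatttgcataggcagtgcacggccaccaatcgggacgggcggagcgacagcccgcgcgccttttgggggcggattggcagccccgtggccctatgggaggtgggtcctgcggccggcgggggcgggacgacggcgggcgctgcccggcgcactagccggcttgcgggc
A match is a string of letters and not evidence of binding, and receptor binding far from the start is outside these windows.

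Nr3c1, the receptor, lies on chromosome 18 (GRCm38, 39410545 to 39519421, minus strand). Its RNA was found in all 8 classes, and its level did not differ by diet beyond the spread between libraries in any of them. In B cells it stood at 212.4, 131.9 and 258.7 CPM in ND 1 to 3 and at 257.8, 260.2 and 98.7 CPM in MCDHFD 1 to 3. In CD8 T cells the values were 134.1, 95.9 and 152.7 CPM with ND and 157.4, 152.4 and 75.2 CPM with MCDHFD. The diets overlapped in every class, and the low library of each diet was the one with a filtered list in 7 of 8 classes. Over classes the fitted log2 change ran from -0.11 to 0.19, with standard errors of 0.103 to 0.234 and adjusted p of 0.602 to 0.973 (edgeR's quasi-likelihood test). In cells that met the neutrophil gate alone, the change was 0.61 and passed (adjusted p = 0.0383). By mean over the 6 libraries the order was B (203.3 CPM), NK (178.2), neutrophil (161.4), CD4 T (160.5), mono/mac (156.5), DC (146.9), CD8 T (127.9) and erythroid cells (84.5). Neighbours in such an order were compared by an exact sign-flip permutation test over the 6 libraries, 56 pairs over the members. The smallest p that 6 libraries allow was reached by 9 pairs and adjusted to 0.194 (exact test), so the test does not show whether neighbours are alike. For Nr3c1, CD8 T cells were above erythroid cells in 5 of 6 libraries.

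Fkbp5 encodes a co-chaperone of the receptor complex that lowers the receptor's affinity for hormone, so its induction is a feedback loop. It was higher with MCDHFD in all 8 classes, and the change passed the test in 7 of them. Mean levels were 2.94 to 5.34 times higher with MCDHFD, depending on the class. The gene lies on chromosome 17 (28399094 to 28517527, minus strand). Of the genes that overlap it, one on the same strand held UMIs amounting to 0.786% of those of Fkbp5 and one on the opposite strand 3.24%.

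In B cells Fkbp5 stood at 33.6, 18.7 and 38.4 CPM in ND 1 to 3 and at 120.5, 255.3 and 75.2 CPM in MCDHFD 1 to 3. The lowest MCDHFD library was above the highest ND library, and the log2 change was 2.21 (SE 0.273, adjusted p = 0.0141, edgeR). CD8 T cells, the cell type in the study's title, had 48.6, 30.6 and 48.3 CPM with ND and 128.6, 250.4 and 105.7 CPM with MCDHFD, a log2 change of 1.83 (SE 0.220, adjusted p = 0.00854). CD4 T cells had 107, 42.0 and 74.8 CPM with ND and 179.4, 358.6 and 121 CPM with MCDHFD, a log2 change of 1.54 (SE 0.239, adjusted p = 0.0185). In these lymphocyte classes the diets were apart in every library, by the narrowest margin in CD4 T cells.

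NK cells showed the smallest adjusted p of any member and class. Their levels were 86.5, 40.1 and 90.6 CPM with ND against 242.5, 379.2 and 173.4 CPM with MCDHFD, a log2 change of 1.77 (SE 0.188, adjusted p = 0.000578). Mono/mac cells showed the largest Fkbp5 change, from 64.6, 21.2 and 57.0 CPM to 187.7, 436.2 and 139.1 CPM, a log2 change of 2.44 (SE 0.325, adjusted p = 0.0212). Neutrophils, short-lived cells that respond to glucocorticoids by leaving the marrow and surviving longer, went from 50.9, 25.2 and 45.6 CPM to 121.7, 352.6 and 108.5 CPM (log2 change 2.05, SE 0.353, adjusted p = 0.0182). DC had 35.1, 28.4 and 27.5 CPM against 88.7, 219.7 and 86.4 CPM (log2 change 2.09, SE 0.321, adjusted p = 0.0137). The content of the neutrophil gate itself differed by diet: neutrophil markers summed to 226400 to 269800 CPM with ND and 105700 to 159500 CPM with MCDHFD, with no overlap. In that gate erythroid markers were higher (40 to 1518 against 1760 to 14540 CPM), and mono/mac (5820 to 8371 against 3652 to 4771) and NK markers (169 to 298 against 44 to 145) lower. Their part in the neutrophil results was not tested. In cells of the neutrophil gate alone the Fkbp5 change was 2.09 (adjusted p = 0.00144). Mono/mac markers in the DC gate (380 to 504 against 571 to 1200 CPM) and NK markers in the NK gate (10160 to 12890 against 8756 to 10020 CPM) also separated the diets. Each lymphoid and myeloid class thus had a call in the same direction. In erythroid cells the levels were 25.6, 26.3 and 5.72 CPM with ND and 42.5, 67.3 and 70.7 CPM with MCDHFD. The diets did not overlap there either, but the log2 change of 1.59 (SE 0.386) did not pass (adjusted p = 0.328).

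MCDHFD 2 had the highest Fkbp5 level of its diet in 7 of 8 classes, and the library with a filtered list was the lowest of its diet in both diets in 6. Without MCDHFD 2 the change was called in 6 classes and lost in CD4 T cells (log2 1.20, adjusted p = 0.0622). Without ND 2 it was lost in mono/mac cells, and without MCDHFD 3 in mono/mac cells and DC. With diet as the sole term, Fkbp5 changes were of the same size (log2 1.53 to 2.39) and reached an unadjusted p of 0.000487 to 0.0176, but none passed adjustment (adjusted p 0.112 to 1). With all 6 libraries, the calls thus rest on the list-form term. Within the 4 libraries with unfiltered lists, where no such term enters, the change was called in 5 classes. It was not called there in mono/mac cells, DC or erythroid cells. Without ND 1 it was called in 2 classes, CD8 T and NK cells, and without ND 3 in 3, NK, mono/mac and DC.

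**Figure D1:**
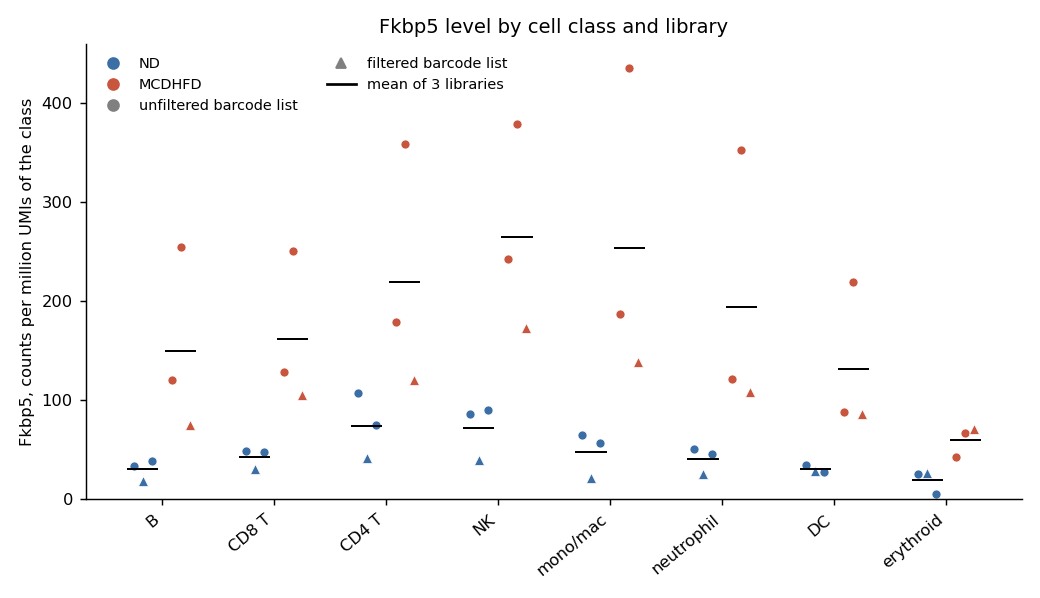
Fkbp5 level (vertical axis, CPM of the class, linear from 0) in each of 6 libraries for the 8 cell classes (horizontal axis). Blue points are ND, red points MCDHFD, triangles the 2 libraries with filtered barcode lists and black lines the means of 3 libraries. In every class the 3 MCDHFD libraries lie above the 3 ND libraries, and MCDHFD 2 is the highest in 7 of 8 classes.

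Shares of cells with an Fkbp5 UMI were also read, after thinning each cell to 1000 UMIs. At the levels above, a cell thinned so far rarely holds more than a single Fkbp5 UMI, so the thinned share largely restates the level. It cannot tell more cells with the RNA from more RNA per cell. No cell was shallower than that. In B cells the thinned share was 2.86%, 1.58% and 3.81% with ND and 11.96%, 23.1% and 7.48% with MCDHFD. Among CD8 T cells it was 4.17%, 3.97% and 3.46% with ND and 11.9%, 22.8% and 9.81% with MCDHFD. The unthinned shares in CD8 T cells were 30.7%, 17.6% and 31.4% with ND and 56.0%, 76.8% and 49.6% with MCDHFD. The shares ordered the libraries as the levels did in these MCDHFD libraries. Thinned shares of the diets did not overlap in 6 of 8 classes, where the two-sided exact permutation test gave p = 0.1, the smallest that 3 against 3 libraries allow. They overlapped in CD4 T and erythroid cells (exact permutation p = 0.2 in both).

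The lowest class mean of the thinned share was 2.66% in DC with ND and 5.67% in erythroid cells with MCDHFD. Median depths were 6948 to 11101 UMIs per DC and 18088 to 63418 UMIs per erythroid cell. Free RNA in empty droplets held Fkbp5 at 22.3 and 22.5 CPM in ND 3 and ND 1 and at 94.3 and 122.1 CPM in MCDHFD 1 and 2. The free RNA in each class was estimated in cells that met 1 gate alone, from a marker gene of another cell type. That gene was S100a8, or Cd79a in mono/mac cells and neutrophils. By this estimate free RNA could supply 0.319% to 5.91% of the Fkbp5 level of those cells outside the erythroid gate. In erythroid cells it reached 16.8%. Cells of 1 gate can leave out those rich in the marker gene, so the estimate can be too low. It is not a bound for the full gates. These values cover the 4 libraries with unfiltered lists.

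**Figure D2:**
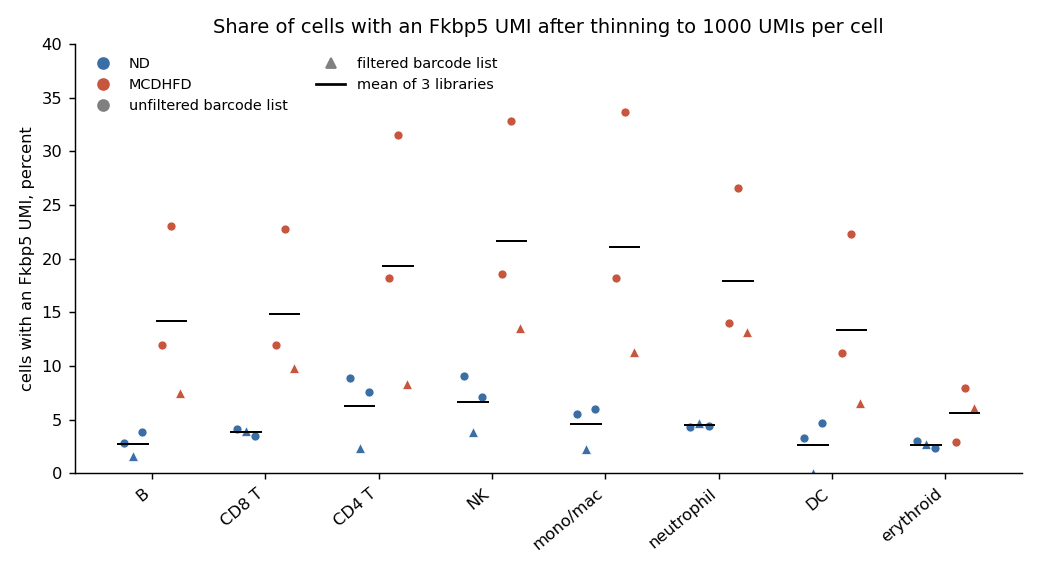
Percent of cells with at least 1 Fkbp5 UMI after thinning every cell to 1000 UMIs (vertical axis) in 6 libraries for the 8 cell classes (horizontal axis), with the colours, shapes and mean lines of the plot of levels. B cells rose from 1.58% to 3.81% with ND to 7.48% to 23.1% with MCDHFD, and the diets overlap in CD4 T and erythroid cells.

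The 8 members gave 61 tests over the 8 classes, since Zbtb16, Sgk1 and Errfi1 were too low to be tested in erythroid cells. Of these, 16 were called higher with MCDHFD and 0 lower at an adjusted p under 0.05. The fitted change was above 0 in 53 of the 61, and at an unadjusted p under 0.05 36 were higher and 0 lower. The share of all genes at that level was not counted in this model, so the 36 have no background beside them. With diet as the sole term, 0 of 61 were called and 25 had an unadjusted p under 0.05. Of those 25, neutrophils held 7 of 8 tests, where 15.7% of all genes were at that level, and the other classes 2 to 4 each, where 2.96% (CD8 T) to 8.18% (NK) of all genes were. By class, the members called higher were 3 of 8 in B cells, against 1.68% of all genes tested there called higher and 2.68% lower. CD8 T cells had 1 of 8 (0.198% of all genes higher, 0.315% lower), and in CD4 T cells 3 of 8 (0.543% and 1.23%). NK cells had 2 of 8 (1.18% and 1.83%) and mono/mac cells 1 of 8 (0.314% and 0.645%). Neutrophils had 4 of 8 (2.97% and 4.36%), DC 2 of 8 (0.672% and 0.724%) and erythroid cells 0 of 5 (0.0871% and 0.0218%).

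With diet alone, the share of all genes called in either direction was 0.00901% in CD8 T cells, 0.119% in neutrophils, 0.0109% in erythroid cells and 0.00% in the other 5 classes. Counting instead libraries that do not overlap by diet, members were higher in 2 of 8 tests in B cells (6.17% of all genes), 1 in CD8 T (5.77%), 2 in CD4 T (4.61%), 3 in NK (8.89%) and 4 in mono/mac cells (4.87%). In neutrophils it was 5 of 8 (14.2%), in DC 3 of 8 (6.24%) and in erythroid cells 2 of 5 (4.74%). Errfi1 in neutrophils and Zbtb16 in DC entered through their MCDHFD libraries alone, and without them the counts are 4 of 7 and 2 of 7. The median change of the members was above that of all genes tested in every class, from 0.40 in erythroid cells to 1.28 in neutrophils, where all genes had medians between -0.01 and 0.05. The members were chosen with earlier results of these data known. Their counts and medians beside all genes are thus descriptions and not independent support.

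**Figure D3:**
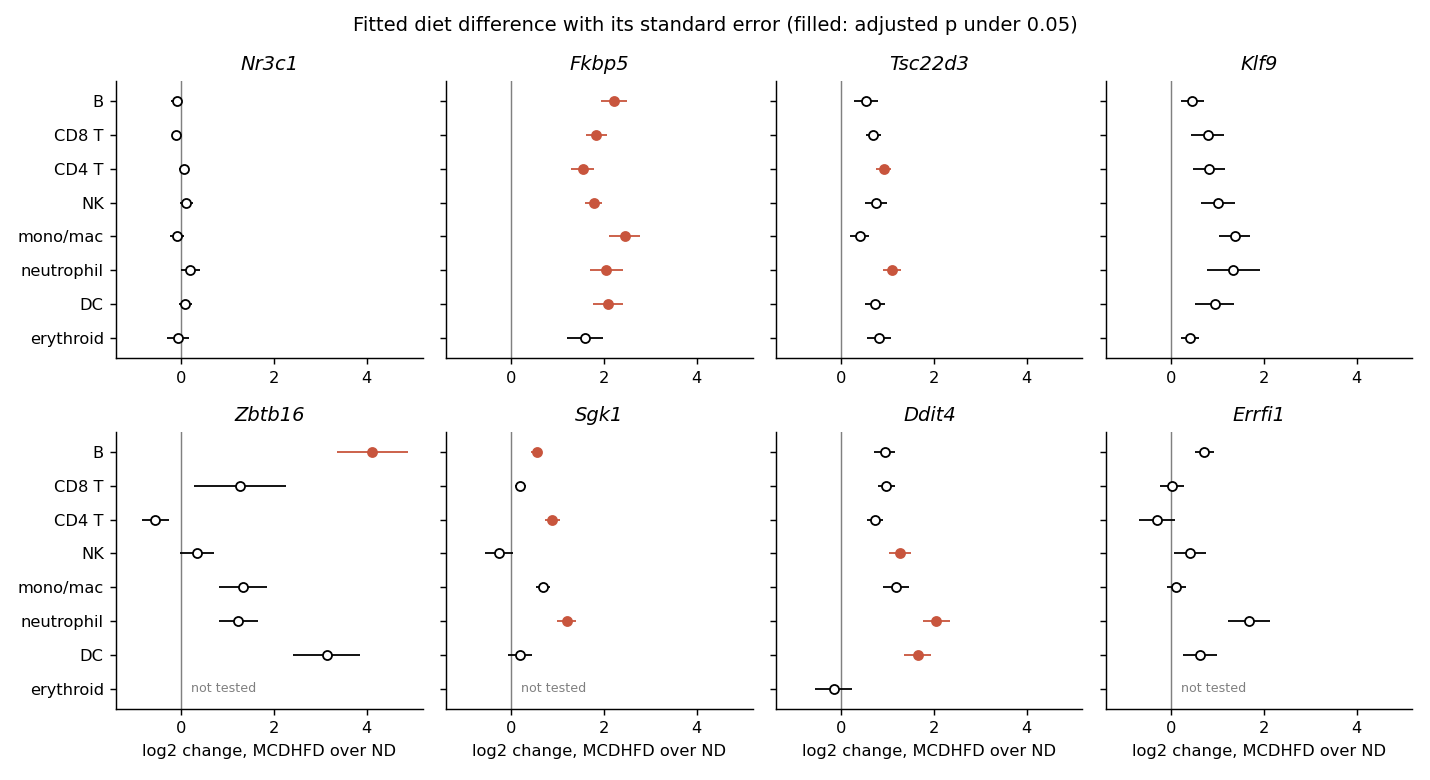
Fitted log2 change with MCDHFD over ND (horizontal axis) for the 8 genes in the 8 classes (vertical axis), with diet and list form in the model. Bars are 1 standard error and filled red points passed an adjusted p of 0.05. Fkbp5 lies between 1.54 and 2.44 in every class, and Nr3c1 between -0.11 and 0.19.

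Tsc22d3, also known as GILZ, encodes a leucine zipper protein that binds and restrains inflammatory transcription factors (chromosome X, 140539528 to 140600659, minus strand). It rose with MCDHFD in neutrophils and CD4 T cells. Neutrophils had 188.9, 160.9 and 248.1 CPM with ND and 414.9, 619.6 and 401 CPM with MCDHFD. Every MCDHFD library was above every ND library, and the log2 change was 1.09 (SE 0.199, adjusted p = 0.0211, edgeR). It was 1.64 in cells of that gate alone (adjusted p = 0.000724), whose marker content differed by diet as given above. CD4 T cells had 97.0, 139.3 and 101 CPM with ND and 134.2, 191 and 349.2 CPM with MCDHFD, a log2 change of 0.91 (SE 0.166, adjusted p = 0.0309), and the diets overlapped. With diet alone neither passed (adjusted p 0.144 and 0.968). In the other 6 classes the change ran from 0.39 to 0.82 and did not pass.

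In CD8 T cells Tsc22d3 had 117.5, 161.8 and 112.7 CPM with ND and 146.3, 200 and 352.1 CPM with MCDHFD. The log2 change of 0.69 there did not pass (adjusted p = 0.119), but did with DESeq2 (0.00416) and in cells of the CD8 T gate alone (0.0149). In B cells it was at 187.4, 168.6 and 155.2 CPM with ND and 172.6, 233.2 and 417 CPM with MCDHFD, so that MCDHFD 2 and MCDHFD 3 were above ND and MCDHFD 1 was within it. MCDHFD 3 had the highest level of its diet in 6 of 8 classes. The CD4 T call was lost without ND 1, ND 3 or MCDHFD 2 (adjusted p 0.0860, 0.0524 and 0.171). The neutrophil call was lost without ND 1, ND 3 or MCDHFD 2 (adjusted p 0.136, 0.0942 and 0.0551). By mean level neutrophils (338.9 CPM) were first, B cells (222.3) second and erythroid cells (26.0) last. CD8 T cells were above CD4 T cells, their neighbours in that order, in 6 of 6 libraries, and NK cells above erythroid cells in 6 of 6.

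Klf9 encodes a Krüppel-like zinc finger factor that glucocorticoids induce in many tissues (chromosome 19, 23141226 to 23168134, plus strand). No change of it passed in any class. Mono/mac cells had 14.9, 9.24 and 17.0 CPM with ND and 24.0, 53.1 and 30.5 CPM with MCDHFD, a log2 change of 1.37 (SE 0.334, adjusted p = 0.109). The diets did not overlap there, nor in CD4 T, NK and erythroid cells. In NK cells the values were 12.8, 6.68 and 12.4 CPM with ND and 17.7, 33.1 and 21.7 CPM with MCDHFD (log2 change 1.00, adjusted p = 0.135). The mono/mac change passed with DESeq2 (adjusted p = 0.00785) and without MCDHFD 1 (0.0392). The level in CD8 T cells was the lowest of the 8 classes, at 3.73, 3.69 and 3.45 CPM with ND and 6.27, 10.4 and 3.19 CPM with MCDHFD. MCDHFD 2 was the highest library of its diet in 7 of 8 classes, as for Fkbp5. Erythroid cells had the highest mean (32.8 CPM), followed by mono/mac (24.8), NK (17.4) and neutrophils (10.9).

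Zbtb16, or PLZF, encodes a zinc finger factor that marks innate-like lymphocytes and is among the strongest glucocorticoid-induced genes in several cell types (chromosome 9, 48654297 to 48836222, minus strand). It rose in B cells, from a very low level. ND 1 to 3 had 0.514, 1.55 and 0.623 CPM, resting on 15, 20 and 14 UMIs, and MCDHFD 1 to 3 had 10.0, 29.3 and 4.54 CPM, resting on 220, 672 and 37 UMIs. The diets did not overlap, and the log2 change was 4.12 (SE 0.756, adjusted p = 0.0351, edgeR). With diet alone it did not pass (adjusted p = 0.341). In cells that met the B gate alone it was 6.12 (adjusted p = 0.00258). By the estimate above, free RNA could there supply 153% of the ND 1 level and up to 0.768% of that in MCDHFD 1 and 2. The ND 1 level thus cannot be told from free RNA.

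The B cell call of Zbtb16 was lost without ND 1 (adjusted p = 0.179), ND 3 (0.139), MCDHFD 1 (0.0823) or MCDHFD 2 (0.0638), and with at most 5% mitochondrial UMIs (0.0515). DC had at most 4.601 CPM with ND and 9.42, 19.4 and 10.0 CPM with MCDHFD, a change that did not pass (log2 3.13, adjusted p = 0.0682). That gene entered the DC test through its MCDHFD libraries alone, as 0 ND libraries reached the filter. Mono/mac cells had the highest mean, 48.3 CPM, with 24.8, 17.6 and 35.0 CPM in ND and 42.3, 150.4 and 19.9 CPM in MCDHFD. Here 1 library, MCDHFD 2, stood far above the rest. CD4 T cells were the class with the lowest fitted value (log2 -0.56, adjusted p = 0.386).

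Sgk1 encodes a serine/threonine kinase that regulates ion transport and cell survival (chromosome 10, 21882184 to 21999903, plus strand). Of its several promoter windows, only the window shown above carries the full response element. It rose with MCDHFD in neutrophils, CD4 T and B cells. Neutrophils had 23.6, 31.4 and 29.8 CPM with ND and 77.7, 78.5 and 56.5 CPM with MCDHFD. No libraries overlapped, and the log2 change was 1.19 (SE 0.204, adjusted p = 0.0181, edgeR). In cells of that gate alone it was 1.60 (adjusted p = 0.000724). CD4 T cells had 15.1, 22.7 and 11.99 CPM with ND and 25.5, 22.1 and 46.1 CPM with MCDHFD (log2 change 0.88, SE 0.165, adjusted p = 0.0337), with overlap. In B cells the values were 6.45, 11.7 and 6.40 CPM against 9.43, 8.98 and 20.3 CPM (log2 change 0.55, adjusted p = 0.0497).

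With diet alone none of the 3 Sgk1 calls passed (adjusted p 0.0865 in neutrophils, 0.9995 in CD4 T cells and 1 in B cells). The B cell call was lost with upper-quartile scaling (adjusted p = 0.0516), with predicted doublets removed (0.214) and in cells meeting the B gate alone (0.168). It was also lost among the 4 unfiltered lists (0.0518) and without any one library other than ND 2 (0.0512 to 0.177). The CD4 T call was lost when any library other than MCDHFD 3 was left out (adjusted p 0.0517 to 0.133) and among the 4 unfiltered lists (0.0564), and the neutrophil call without ND 1 or ND 3 (0.137 and 0.0978). Mono/mac cells, first by mean level (57.8 CPM), did not overlap by diet, with 37.7, 51.3 and 44.1 CPM against 65.8, 77.5 and 70.2 CPM. Their log2 change of 0.68 did not pass (adjusted p = 0.0822). In NK cells the fitted value was below 0 (log2 -0.27, adjusted p = 0.668), and CD8 T cells had a log2 change of 0.19 (adjusted p = 0.514; 35.0 ± 5.13 CPM with ND and 42.6 ± 8.88 CPM with MCDHFD, mean ± SD, n = 3).

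Ddit4, or REDD1, encodes an inhibitor of the growth-promoting mTOR kinase that is induced by glucocorticoids, low oxygen and energy stress (chromosome 10, 59949669 to 59951834, minus strand). It rose with MCDHFD in neutrophils, DC and NK cells, although the diets overlapped in every class. NK cells had 13.6, 89.1 and 28.6 CPM with ND and 42.8, 53.9 and 260.1 CPM with MCDHFD (log2 change 1.27, SE 0.240, adjusted p = 0.0156, edgeR). DC had 41.0, 113.5 and 23.3 CPM with ND and 54.9, 94.6 and 566.1 CPM with MCDHFD (log2 change 1.64, adjusted p = 0.0220). Neutrophils had 4.88, 21.8 and 3.31 CPM with ND and 13.3, 19.1 and 142.9 CPM with MCDHFD (log2 change 2.05, adjusted p = 0.0163).

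With diet alone none of the 3 passed (adjusted p 0.699 in NK cells, 0.878 in DC and 0.286 in neutrophils). In each of these classes the library with the filtered list was the highest of its diet. This held in both diets and in all 8 classes for Ddit4, a count that no other member reached. In CD8 T cells, for example, ND 2 had 132 CPM against 36.9 and 40.2 in the other ND libraries, and MCDHFD 3 had 343.2 CPM against 55.3 and 84.2. The change in that class was 0.97 (adjusted p = 0.0582) and passed with DESeq2 (9.9e-05) and in cells of that gate alone (0.000774). The DC call was lost with DESeq2 (adjusted p = 0.0838), among the 4 unfiltered lists alone (0.231), in cells of 1 gate (0.0640) and without ND 2 or MCDHFD 3 (0.159 and 0.206). The NK call was lost without ND 1, MCDHFD 1 or MCDHFD 2 (adjusted p 0.0726 to 0.137). The neutrophil call was lost without ND 1 (0.0826) or ND 3 (0.0841). Ddit4 was not tested in cells of the neutrophil gate alone. In those cells, at 1.76 CPM in ND 1, free RNA could supply 13.2% to 53.7% of the Ddit4 level by the estimate above.

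Errfi1 encodes an inhibitor of the epidermal growth factor receptor family (chromosome 4, 150853919 to 150868892, plus strand). No change of it passed in any class. Neutrophils came nearest, with 2.07, 1.36 and 3.31 CPM in ND and 7.03, 8.05 and 9.97 CPM in MCDHFD, a log2 change of 1.67 (SE 0.446, adjusted p = 0.0557). The diets did not overlap, but 0 ND libraries reached the filter, so the gene entered that test through MCDHFD alone. NK cells had the highest mean, 16.1 CPM, and mono/mac cells had 8.69 ± 0.470 CPM with ND and 9.56 ± 0.0378 CPM with MCDHFD (mean ± SD, n = 3).

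**Figure D4:**
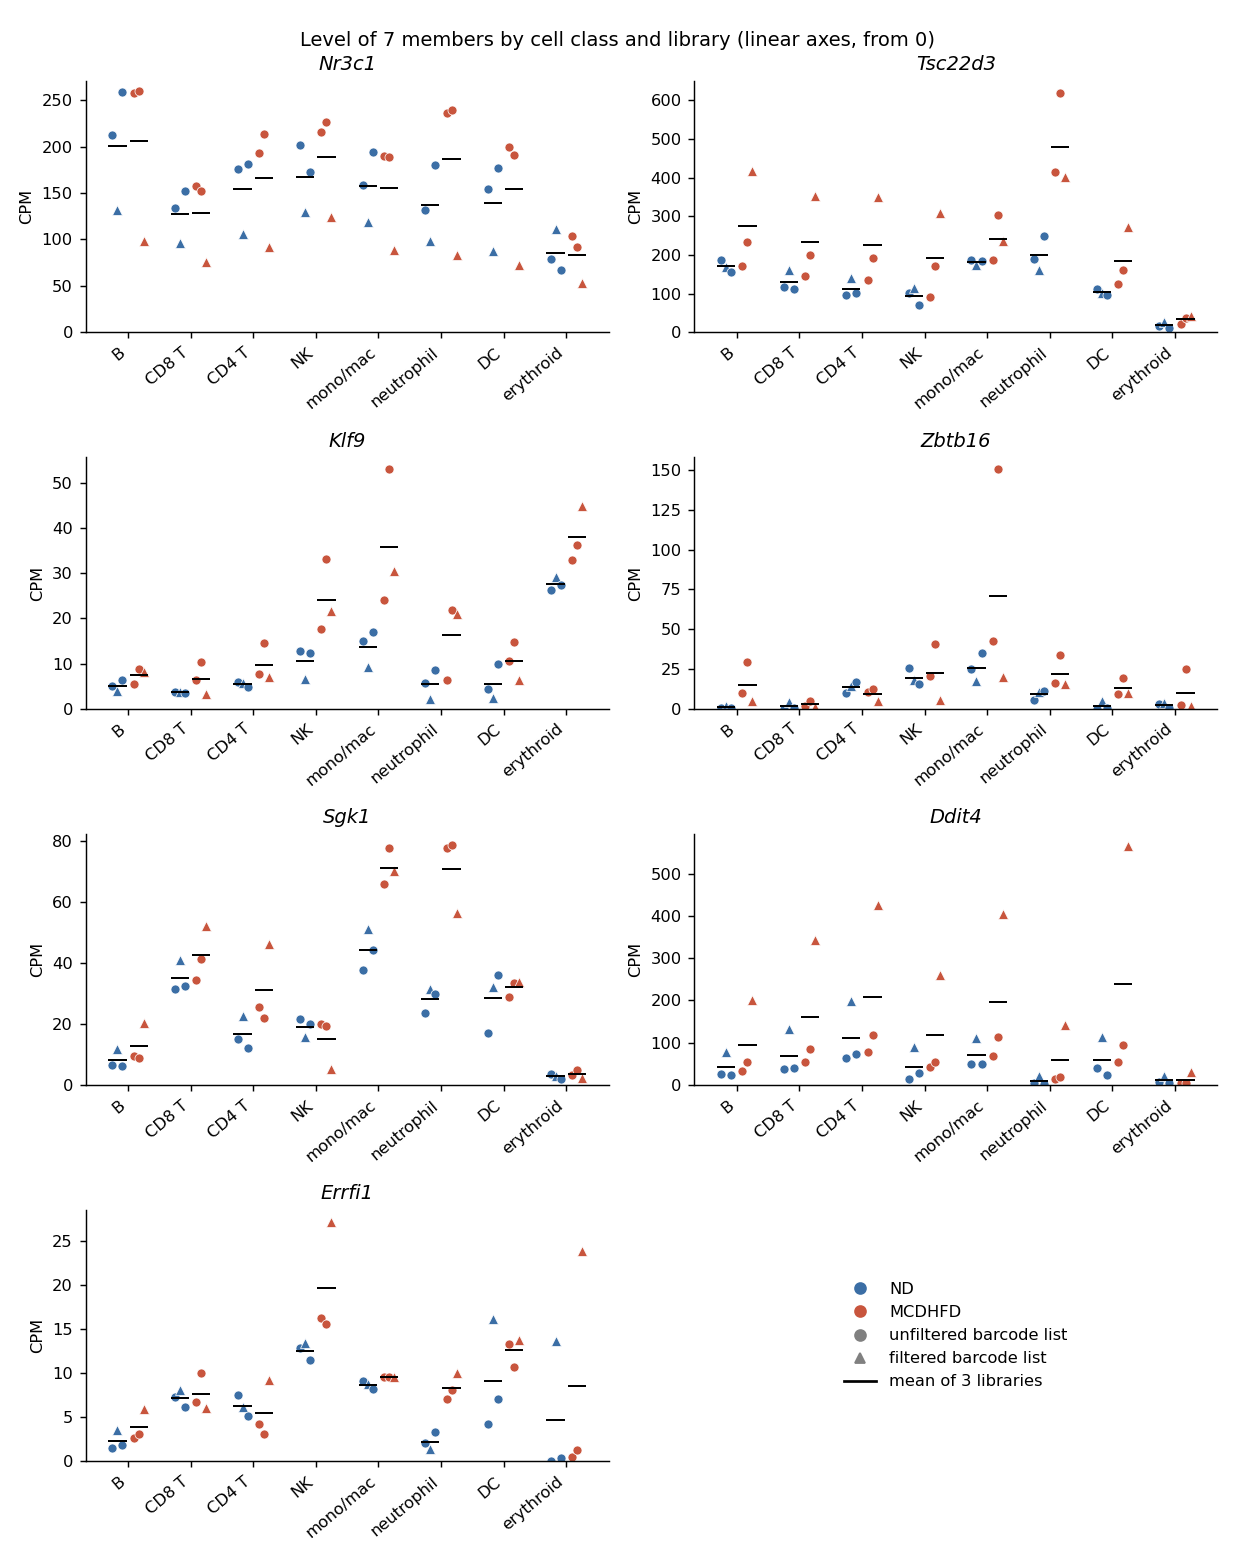
Levels (vertical axes, CPM, linear from 0) of Nr3c1, Tsc22d3, Klf9, Zbtb16, Sgk1, Ddit4 and Errfi1 in the 8 cell classes (horizontal axes), 1 point per library, with the colours, shapes and mean lines of the Fkbp5 plot. Triangles, the filtered lists, are the highest points of their diet for Ddit4 in all 8 classes and the lowest for Nr3c1 in 7 of 8.

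CD8 T cells were compared with each other class for the size of the diet change, by a term for that difference. Of 53 member tests, 1 passed: the Fkbp5 change was smaller in CD8 T cells than in B cells by 0.39 on the log2 scale (difference -0.39, SE 0.0862, adjusted p = 0.0458, edgeR). Among all genes, 2.48% differed in that pair. The Fkbp5 difference to CD4 T cells was 0.30 (adjusted p = 0.346), to NK cells 0.11 (0.878), to mono/mac cells -0.56 (0.242), to neutrophils -0.12 (0.778), to DC -0.17 (0.859) and to erythroid cells 0.12 (0.971). All genes differed at 0.601% against CD4 T, 0.221% against NK, 0.00987% against mono/mac, 0.0689% against neutrophils, 0.0434% against DC and 0.0229% against erythroid cells. No other member passed in any pair. The call against B cells was lost without the list-form term and without ND 1, ND 2, ND 3, MCDHFD 2 or MCDHFD 3.

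The members were also compared with each other across libraries. Where neither gene separated the diets, 95 pairs in a class could be correlated over 6 libraries. The other 129 pairs got no pooled value. At an unadjusted exact permutation p under 0.05 there were 14, and 0 passed adjustment (lowest adjusted p 0.158). Nr3c1 and Ddit4 had a median r of -0.81 over 8 classes, but 0.47 within the 4 libraries with unfiltered lists, so the inverse relation rests on the 2 filtered lists. Their r in CD8 T cells was -0.88 (rho -0.60, exact permutation p = 0.0528 and 0.242, adjusted 0.313 and 0.717). It was 0.55 without the 2 libraries farthest from the median of Nr3c1, ND 2 and MCDHFD 3.

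Tsc22d3 and Sgk1 in CD8 T cells had r = 0.97 (rho 0.94, exact permutation p = 0.00556 and 0.0167, adjusted 0.158 and 0.226), and 0.91 without the 2 farthest libraries. Tsc22d3 and Ddit4 in the same cells had r = 0.94 (rho 0.89, exact permutation p = 0.0250 and 0.0333, adjusted 0.297 and 0.288), and 0.73 without the 2 farthest. In NK cells Sgk1 and Ddit4 ran the other way, with r = -0.88 (rho -1, exact permutation p = 0.00278 for both, adjusted 0.158 and 0.226), and -0.97 without the 2 farthest. These levels rest on few UMIs. Sgk1 had 27, 7 and 21 in ND 1 to 3 and 27, 30 and 1 in MCDHFD 1 to 3. Ddit4 had 17, 40 and 30 with ND and 58, 83 and 48 with MCDHFD. Of the 95 pairs, 55 kept their sign within the 4 unfiltered lists.

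Over the 48 library-by-class sums, after each class mean of log2(CPM + 1) was subtracted, the genes most like Fkbp5 among 7349 were Mlxip (r = 0.83), Ubl3 (0.83), Rcsd1 (0.82), Cpt1a (0.81) and Ptpn1 (0.80). Cpt1a encodes the enzyme that commits fatty acids to mitochondrial oxidation, and Mlxip a glucose-sensing transcription factor. Klf9 came next (r = 0.79, rank 6), and Fkbp5 was in turn the gene nearest to Klf9. Tsc22d3 was at rank 320 (r = 0.58), Nr3c1 at 1837 (0.37) and Ddit4 at 2985 (0.19). Nearest to Tsc22d3 was Zfp36l2 (r = 0.87), which encodes an RNA-binding protein that destabilises mRNA, and next was the clock gene Per1 (0.78). Both were chosen for mention after their values were seen. The points share libraries, diets and list forms, so these values are descriptions of likeness over the 48 sums. Diet was left in, and Fkbp5 separated the diets in all 8 classes. Likeness to Fkbp5 can therefore restate the diet difference and does not show that genes vary together within a diet.

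**Figure D5:**
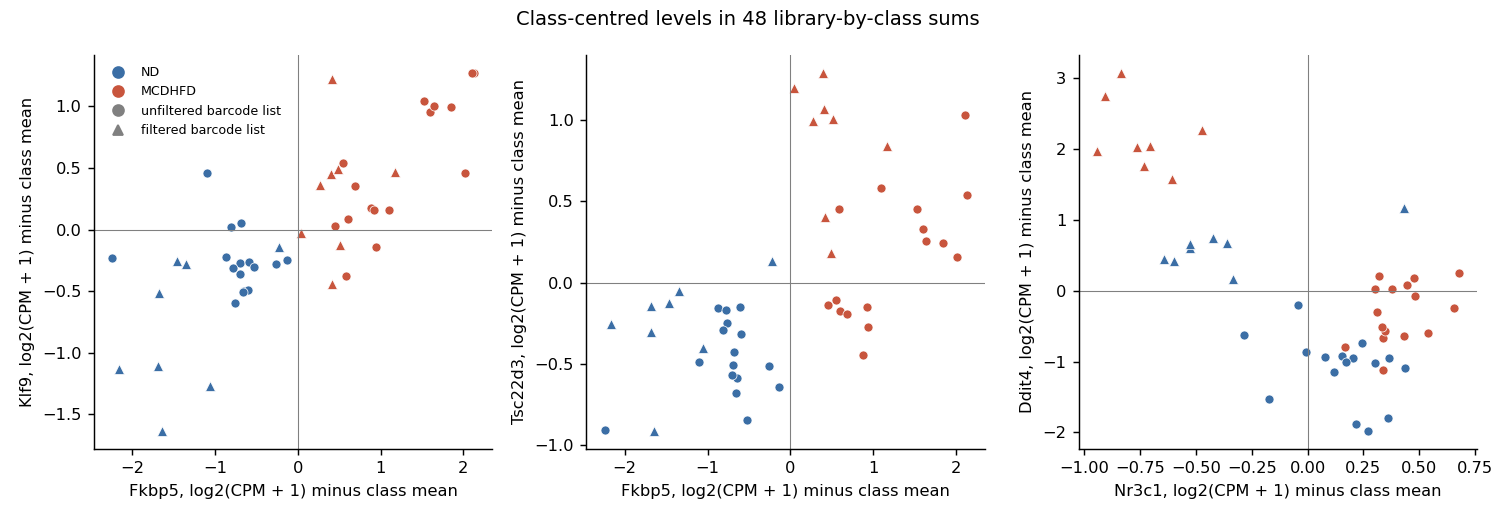
Levels of Klf9 against Fkbp5, Tsc22d3 against Fkbp5 and Ddit4 against Nr3c1 in the 48 library-by-class sums, each as log2(CPM + 1) minus its class mean, with blue for ND, red for MCDHFD and triangles for filtered lists. With both diets pooled, r with Fkbp5 is 0.79 for Klf9 and 0.58 for Tsc22d3, values that include the diet difference. In the right panel the triangles stand apart from the circles.

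Other genes of the pathway were read from lists, also chosen with earlier results of these data known. The calls named below come from the model with list form: of 31 such calls, 0 passed with diet alone (lowest adjusted p 0.0882, Pik3ip1 in neutrophils), and 25 had an unadjusted p under 0.05. In 11 of the 31 the diets overlapped. The list counts at an unadjusted p under 0.05 given further on come from the model with list form. The share of all genes at that level was not counted in that model, so they have no background beside them. Of 26 further glucocorticoid-induced genes, neutrophils had 4 called higher and 1 lower of 21 tested (median log2 0.51), and DC had 2 higher of 19 (median 0.70). In neutrophils the 4 were Pik3ip1, an inhibitor of PI3-kinase (log2 1.76), Il7r, the interleukin 7 receptor (1.67), Cebpb, a myeloid transcription factor (0.95), and Zfp36l2 (0.93). Anxa1, the anti-inflammatory protein annexin, was lower in neutrophils (log2 -0.93, adjusted p = 0.0416) and higher in DC (0.92, adjusted p = 0.0146). Zfp36l2 was also higher in DC (0.94).

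Il7r was higher in B cells (1.26, adjusted p = 0.00990) and CD4 T cells (0.58, adjusted p = 0.0471) too. Its mean level on the log2 CPM scale was 8.97 in CD4 T cells, 4.93 in B cells and 4.75 in neutrophils. CD8 T cells made up 8.41%, 10.8% and 8.16% of cells with ND and 13.5%, 12.6% and 21% with MCDHFD. Of B gate cells, 1.02%, 2.67% and 0.883% were also in the CD8 T gate with ND and 2.34%, 1.74% and 6.33% with MCDHFD. The part of T cell RNA in the B cell and neutrophil changes was not tested. Rgs2, a regulator of G protein signalling, was lower in B cells (log2 -0.69). In NK cells the 1 called of 16 was Bcl2l11, which encodes the death-promoting protein BIM (log2 1.15). CD8 T cells, mono/mac and erythroid cells had 0 called of 21, 24 and 23 by edgeR. At an unadjusted p under 0.05, 8 were higher and 2 lower in CD8 T cells, 4 and 0 in mono/mac cells, and 8 and 1 in erythroid cells. The list's median in CD8 T cells was 0.33, against 0.00 over all genes tested, and in mono/mac cells it was -0.01.

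Of 14 cytokine and mediator genes that glucocorticoids repress, 2 tests were called, both lower. Ifng, the interferon gamma gene, was lower in CD4 T cells (log2 -2.12, SE 0.443, adjusted p = 0.0483), and Ptgs2, the inducible prostaglandin synthase, in neutrophils (log2 -1.24, adjusted p = 0.0437). In CD8 T cells 4 of these genes were tested and 0 were called by edgeR (1 lower and 0 higher at an unadjusted p under 0.05). The 12 chaperone genes of the receptor complex had 0 calls by edgeR in all 8 classes. At an unadjusted p under 0.05, 32 of 96 tests were lower and 0 higher, a count without a share of all genes beside it. Medians ran from -0.44 in neutrophils to -0.07 in CD4 T cells. Among 9 coregulators, Ncoa1 (log2 0.66) and Ncoa2 (0.63), which encode coactivators of nuclear receptors, were higher in NK cells, with overlap between the diets (unadjusted p 0.128 and 0.0953 with diet alone).

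Of 5 genes of steroid access, Hsd11b1, whose enzyme regenerates active glucocorticoid inside cells, was lower in neutrophils (log2 -1.21, adjusted p = 0.0211). Nr3c2, the mineralocorticoid receptor, which also binds glucocorticoids, was higher in NK cells (1.13, adjusted p = 0.0447). Genes of other programmes that share targets with this pathway were read in the same way, against the shares of all genes called in each class given above. Of 49 tests of 9 hypoxia genes 3 were called, all of Pdk1, which was higher in B cells (log2 0.44), CD4 T cells (0.61) and neutrophils (1.42). Of the 10 genes of the ATF4 stress response, Psat1 was higher in erythroid cells (1.27), the 1 call in 53 tests, and at an unadjusted p under 0.05 3 tests were higher and 8 lower. Of the FOXO targets, 0 of 9 were called (edgeR, where 9 of 72 tests were higher and 4 lower at an unadjusted p under 0.05). Of 15 clock genes in the matrices, Nr1d2 was higher (0.68) and Bhlhe40 lower (-0.64) in B cells. At an unadjusted p under 0.05, 13 of 65 clock tests were higher and 5 lower, with 7 higher and 2 lower of 12 in B cells. For hypoxia these counts were 5 and 5.

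Genes that respond to tissue dissociation were lower where they were called, except Nr4a1, which was higher in neutrophils (log2 1.33). Hspa1b, a heat shock gene, was lower in CD8 T cells (log2 -3.18), mono/mac cells (-2.57), DC (-2.50) and B cells (-2.34), with overlap between the diets in each. Hspa1a was lower in B cells (-2.16), Jun in NK cells (-1.32) and Egr1 in CD4 T cells (-0.79). Handling of the tissue and the diet cannot be told apart for these genes, and their part in the members' changes was not tested.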

How the data were processed

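The deposited data are counts of UMIs per gene and barcode, made by the authors with Cell Ranger 9.0.1 or 7.2.0 per the file headers. The submitters' processing notes name Cell Ranger 9.1.0, Seurat 4.3.0 and mm10. The members and gene lists were chosen with earlier results of these data known.

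Counts were summed per library and class (Python 3.11.15, scanpy 1.11.5), and a cell meeting several gates entered each. Diet was tested with edgeR 4.0.16 (R 4.3.3; quasi-likelihood test, TMM scaling, its expression filter, terms for diet and list form), with Benjamini-Hochberg adjustment over all genes tested in a class and calls at an adjusted p under 0.05. On simulated counts with 200 genes changed by 1 on the log2 scale, 87.5% were recovered in CD8 T cells, 61% in mono/mac and 62% in erythroid cells. Scrublet predicted 0 to 234 doublets per library, 0 in both filtered lists; they were kept. Library totals were 21259837 to 62238012 UMIs.

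Named were the 8 members, up to 4 called genes per other list and class with the smallest p, and the 5 genes most like Fkbp5. The 10 lists beside the members held other glucocorticoid-induced genes, repressed cytokines, receptor chaperones, coregulators, steroid access, clock, dissociation, hypoxia, ATF4 and FOXO genes. Alternatives were DESeq2 1.42.0, other scaling, filters and cell sets, a replicate block, and leaving out libraries.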

Additional observations from a re-analysis of the deposited data

Results flagged for a closer look

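The diet change of Fkbp5 differed between CD8 T cells and B cells by a test of the difference itself. It was -0.391 on the log2 scale (CD8 T minus B; 1.83 in CD8 T and 2.21 in B cells, adjusted p = 0.0458, edgeR), with all 3 MCDHFD libraries above all 3 ND libraries in both classes. The difference was -0.45 in cells that met 1 gate (adjusted p = 0.0185) and -0.35 without the list-form term (adjusted p = 0.413). Leaving out 1 library at a time gave -0.48 to -0.30.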

How the results depend on the processing

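Of 61 member tests, 16 were called higher. The count was 0 with diet alone, 28 with no filter on low counts and 3 with diet alone on cells that met 1 gate, a setting chosen after seeing the data (Fkbp5, Tsc22d3 and Sgk1 in neutrophils). Leaving out 1 library gave 3 (without ND 1) to 18 (without MCDHFD 1), with 5 without ND 3 and 9 without MCDHFD 2. The other settings gave 11 to 23. No member was called lower under any of these settings, and no called change reversed. Fkbp5 was above 0 in 134 of 134 alternative values (log2 1.18 to 2.80) and Nr3c1 in 76 of 134. The 1 difference between CD8 T cells and another class became 0 without list form and 4 in cells of 1 gate, and 0 to 1 with a library left out. The cause of these shifts was not tested. With the replicate number as a block the count was 0. In B cells the correlations of same-numbered libraries were 0.57, -0.66 and -0.63 for numbers 1, 2 and 3. Numbers 2 and 3 each join a filtered with an unfiltered list, and every such pair was negative in B cells. The filtered lists ND 2 and MCDHFD 3 gave 0.75. The check thus follows list form and cannot tell whether the numbers are pairs. They were not used as pairs in the main fit. Erythroid cells had too few cells for the fit in cells of 1 gate. Their 25 to 67 cells per library, and 37 NK cells in MCDHFD 3, limit what these classes can show.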
